A study of Homo sapiens with 12 samples.

Results

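The E2F transcription factors and the retinoblastoma (RB) family of pocket proteins were followed across MIB1 knockout (KO) and activation of BMP signaling in NCIH838 lung cancer cells. The 10 genes were chosen by name, as the members of the 2 families other than E2F6. They were the activators E2F1, E2F2 and E2F3, the repressors E2F4 and E2F5, the atypical repressors E2F7 and E2F8, and the pocket protein genes RB1, RBL1 and RBL2. All 10 were found among the 58302 gene identifiers in the files, and all 10 passed the filter on low counts, which kept 17188 genes.

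RNA-seq was performed on 12 libraries, 3 for each of 4 groups. All cells carried doxycycline (Dox)-inducible Cas9 constructs against MIB1 (MIB1-iKO cells), a line derived from a single clone, and all were first kept for 3 days in 50 nM of the BMP receptor inhibitor LDN. KO cells received 0.5 μg/mL Dox during those 3 days and WT cells received none, so that Dox and loss of MIB1 cannot be told apart. BMP4 at 10 ng/mL was then given to all cells for 24 hours, together with 50 nM LDN for BMP-off and with DMSO alone for BMP-on, so that each comparison of BMP-on with BMP-off set LDN removal against continued LDN in the presence of the ligand. The groups are called WT BMP-off, WT BMP-on, KO BMP-off and KO BMP-on, and the labels do not say whether replicates came from separate cultures, so p values measure only the spread between these libraries.

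MIB1, the targeted gene, was lower in every KO library than in every WT library. Its level was 157 ± 16.3 CPM (counts scaled to library size) in WT BMP-off and 162 ± 11.3 in WT BMP-on, against 33.7 ± 1.1 in KO BMP-off and 32.0 ± 0.98 in KO BMP-on (SD, n = 3 each). Total counts ranged from 19124010 to 29498000 per library. The dependence of expression on GC content differed among libraries, with a rank correlation across genes between each library's deviation from its group mean and transcript GC content that ran from -0.60 in replicate 2 of KO BMP-off to 0.59 in replicate 3 of the same group. Changes of a member's call or direction under a GC correction are given below. KRT7, KRT8 and KRT18, keratins of simple epithelia, were present at 21.8 to 85.4 RPKM (reads per kilobase of gene length and library size), and the epithelial adhesion genes EPCAM and CDH1 at 2.53 to 5.08 and 1.13 to 1.95 RPKM. The keratin KRT19 was at 0 to 0.078 RPKM. Of the lung lineage markers, NAPSA was at 0.168 to 0.685 RPKM, and NKX2-1, SFTPB and SFTPC stayed at or below 0.057 RPKM. Among 10 markers of immune, endothelial, fibroblast, islet and liver cells, PTPRC and INS were at 0 in every library, and the summed level of the list was 2.17 to 3.50 RPKM in BMP-off and 4.73 to 6.75 RPKM in BMP-on libraries, most of it from COL1A1. The part of these markers in the results was not tested.

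E2F proteins bind short sites in the promoters of genes for DNA synthesis and cell-cycle entry, E2F1 to E2F6 as dimers with a DP protein and E2F7 and E2F8 without one. In resting cells the pocket proteins sit on the E2Fs, pRB (from RB1) mainly on the activators and p107 (RBL1) and p130 (RBL2) mainly on E2F4 and E2F5, and expression of the targets is held down. Phosphorylation of the pocket proteins by cyclin D-CDK4/6 and cyclin E-CDK2 releases the activators. Several family genes are E2F targets themselves, including E2F1, E2F2, E2F7, E2F8 and RBL1, while E2F4 and RB1 are transcribed at a fairly even level through the cycle. In epithelial cells BMP and TGF-β ligands can arrest growth through CDK inhibitors such as p21 and p15.

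Promoters of 5 members are shown, because several of these genes are known to feed back on their own family. They are the 4 whose windows held E2F words, among the members searched, and that of E2F7. Windows of 250 bases before the transcription start were taken from RefSeq (GRCh38.p14), and a RefSeq entry was at hand for 8 members, but not for E2F5 and E2F8, for RB1 and RBL2 at internal starts only and for E2F3 also at a later start that held no E2F word. They were searched on both strands for 4 E2F words. These were TTTGGCG as the classic site, TTTCGCG as the site of the adenoviral E2 promoter, and also the variants TTTCCCG plus, for completeness, TTTGCCG. Of 35116 promoters of this length, 7.33% held at least 1 such word, 0.496% at least 2 and 0.0228% at least 3. In the sequences, written 5′ to 3′ along the strand of the gene, capitals mark the E2F words.

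E2F1 (chr20:33686386-33686635, minus strand): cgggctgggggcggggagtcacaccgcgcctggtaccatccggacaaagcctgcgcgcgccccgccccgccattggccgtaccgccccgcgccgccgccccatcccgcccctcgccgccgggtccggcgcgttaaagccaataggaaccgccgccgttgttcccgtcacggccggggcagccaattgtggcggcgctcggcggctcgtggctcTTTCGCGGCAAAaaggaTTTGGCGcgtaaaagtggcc
E2F2 (chr1:23531234-23531483, minus strand): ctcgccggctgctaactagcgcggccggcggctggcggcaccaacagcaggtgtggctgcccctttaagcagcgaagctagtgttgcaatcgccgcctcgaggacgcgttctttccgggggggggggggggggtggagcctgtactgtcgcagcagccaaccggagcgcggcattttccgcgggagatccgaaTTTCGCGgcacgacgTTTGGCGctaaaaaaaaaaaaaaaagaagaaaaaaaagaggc
E2F3 (chr6:20401629-20401878, plus strand): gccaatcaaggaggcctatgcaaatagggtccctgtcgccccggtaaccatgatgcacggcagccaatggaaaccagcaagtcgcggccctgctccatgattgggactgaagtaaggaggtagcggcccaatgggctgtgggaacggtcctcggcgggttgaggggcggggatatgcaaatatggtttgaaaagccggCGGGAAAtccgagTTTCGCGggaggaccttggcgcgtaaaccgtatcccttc
RBL1 (chr20:37095998-37096247, minus strand): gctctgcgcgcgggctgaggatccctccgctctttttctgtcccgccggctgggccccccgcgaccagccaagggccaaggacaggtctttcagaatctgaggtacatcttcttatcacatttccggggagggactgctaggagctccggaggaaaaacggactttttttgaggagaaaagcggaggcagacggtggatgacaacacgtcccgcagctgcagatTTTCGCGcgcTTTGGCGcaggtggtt
E2F7 (chr12:77065570-77065819, minus strand): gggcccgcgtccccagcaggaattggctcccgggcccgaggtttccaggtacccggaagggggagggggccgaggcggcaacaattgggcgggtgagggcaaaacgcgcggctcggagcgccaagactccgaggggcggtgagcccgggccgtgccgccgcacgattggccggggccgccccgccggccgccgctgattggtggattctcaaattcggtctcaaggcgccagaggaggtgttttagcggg

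E2F1 held 3 words, of which TTTCGCG and a reverse-strand TTTGCCG overlap by 2 bases, with the last word ending 14 bases before the start. E2F2, E2F3 and RBL1 held 2 each, and in RBL1 both lay between 26 and 10 bases before the start. E2F7 held none, although it was among the genes that fell, and neither did the E2F4 window, which is not printed. The E2F7 window held 4 CCAAT words on the reverse strand and the E2F3 window 4 over both strands, and 0.874% of all promoters held as many or more. The E2F1 window held 3 CCAAT words, and 2.93% of all promoters held at least 3. The CHR word TTTGAA, a feature of promoters bound by the DREAM complex, was found in the E2F3 window alone among those printed, against 13.3% of all promoters. A match is a description of the letters and not evidence of binding, and E2F3 with 2 words was not called in any comparison.

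E2F4 was the most abundant member in every group and E2F7 the least. Over all 12 libraries E2F4 ranged from 71.1 to 93.2 RPKM with a median of 84.3. RB1 followed with a median of 32.9 RPKM and E2F1 with 28.5 RPKM, and these 3 genes did not overlap within any group. E2F3 and RBL2, at 18.3 to 22.2 and 17.4 to 22.5 RPKM, overlapped in 3 of the 4 groups. In WT BMP-off cells the order went on with RBL1 and E2F2, which overlapped at means of 16.3 and 16.1 RPKM, and then E2F8 and E2F5, which overlapped at 13.7 and 13.6 RPKM. In KO BMP-on cells E2F5 stood above E2F2, RBL1 and E2F8, with 12.8 RPKM against 11.4, 10.7 and 8.83, and its 3 libraries did not overlap with theirs. E2F7 was at 2.42 to 4.54 RPKM throughout.

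**Figure D1:**
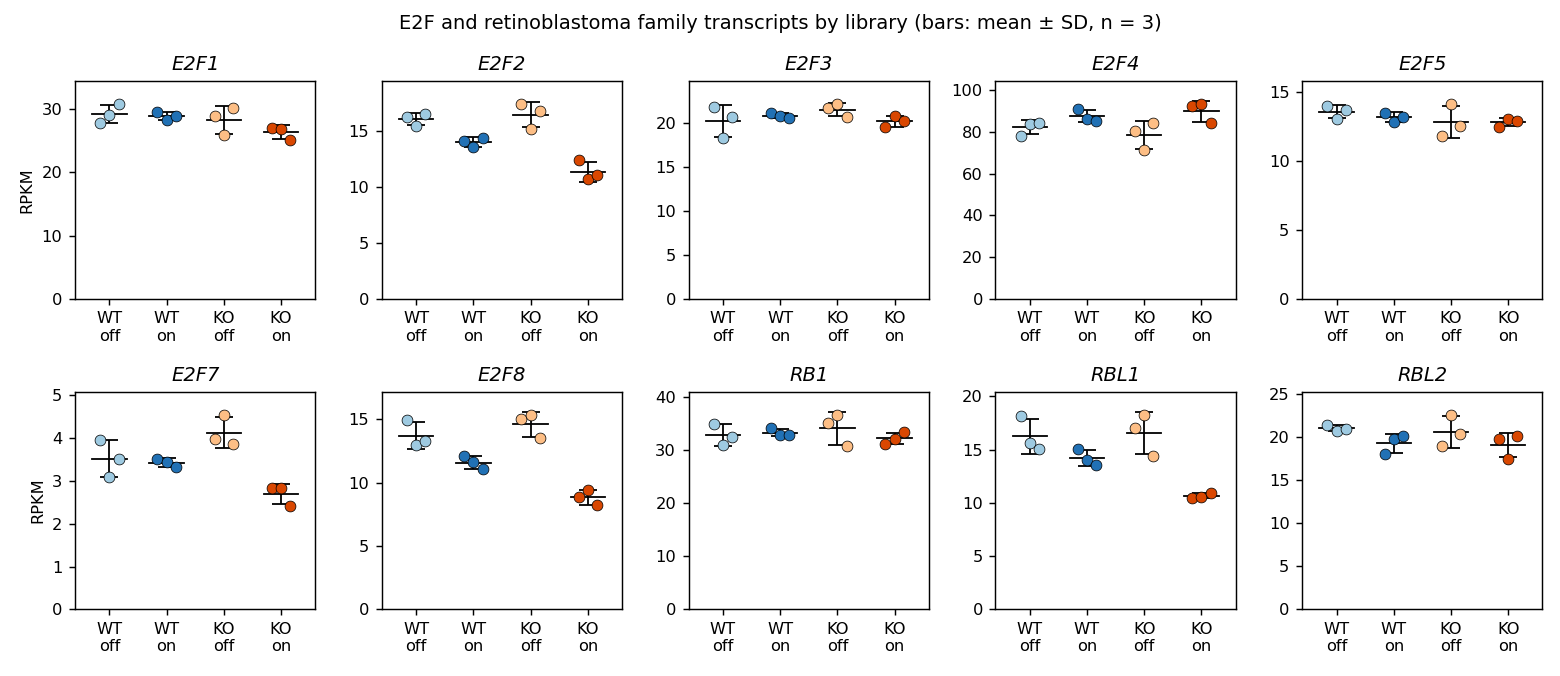
RPKM of the 10 members in the 3 libraries of each group, WT and KO with BMP-off and BMP-on (points: libraries; line and bars: mean ± SD). E2F2, E2F7, E2F8 and RBL1 were lower in all 3 KO BMP-on libraries than in all 9 others, while RB1, E2F3 and E2F5 overlapped across groups.

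With BMP-on, KO cells held less E2F2, E2F8 and RBL1 mRNA than WT cells. These were 3 of the 10 members called lower at an adjusted p of 0.05 or less, where 2.34% of all genes were called lower, and 0 were called higher (1.32% of all genes). With BMP-off, edgeR called 0 of 10 between KO and WT (0.0407% of all genes in both directions), with 1 at an unadjusted p under 0.05, and DESeq2 called 0. In response to BMP, KO cells lowered 4 members, E2F2, E2F7, E2F8 and RBL1, where 10.9% of all genes were called lower, and raised 1, E2F4, where 11.1% were called higher. In WT cells edgeR called 0 of 10 in response to BMP (3.92% of all genes), with 3 at an unadjusted p under 0.05, all lower, while DESeq2 called 0 and the GC-corrected fit 2. In bulk RNA, a lower share of cells in the phase that expresses a gene and less RNA per cell cannot be told apart. None of the 10 members reached an absolute log2 fold change of 1, a mark passed together with the adjusted p by 0.425% and 1.66% of all genes in the BMP response of WT and of KO cells and by 0.14% in KO against WT with BMP-on. The comparisons share groups, so the values of a member in them are not independent of each other.

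**Figure D2:**
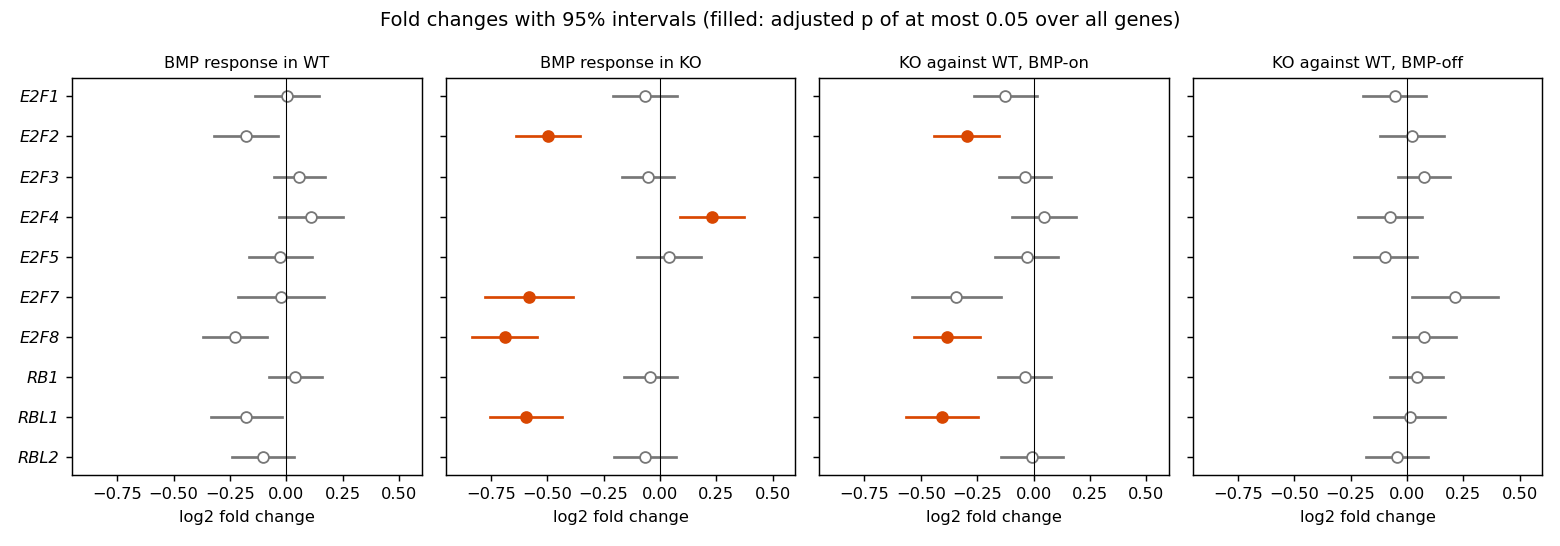
log2 fold changes of the 10 members with 95% intervals in 4 comparisons (edgeR; filled points passed the adjusted p of 0.05). E2F2, E2F8 and RBL1 were called lower in KO against WT with BMP-on, at -0.30 to -0.40 and all intervals for E2F3, E2F5, RB1 and RBL2 include 0.

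Among the activators, E2F2 was the one that fell. Its level was 16.3, 15.5 and 16.5 RPKM in WT BMP-off, 14.2, 13.6 and 14.4 in WT BMP-on, 17.4, 15.2 and 16.8 in KO BMP-off and 12.4, 10.7 and 11.0 in KO BMP-on libraries. The 3 KO BMP-on libraries were below all others, and WT BMP-on libraries lay between them and the overlapping BMP-off groups. In KO cells BMP reduced E2F2 CPM to 70.8% of the BMP-off level (log2 fold change -0.50 ± 0.07 SE, edgeR adjusted p = 6.58e-05). With BMP-on, KO cells were at 81.3% of WT cells (-0.30 ± 0.07, adjusted p = 0.0192), a call that was lost when WT BMP-on replicate 1 (adjusted p = 0.0597) or 3 (0.0852) or KO BMP-on replicate 2 (0.102) or 3 (0.0841) was left out, with log2 fold changes of -0.26 to -0.30. Over 24 alternatives the adjusted p ran from 0.000119 to 0.10. With the GC correction this difference was -0.33 (adjusted p = 0.000145). In WT cells the BMP response was -0.18 ± 0.07 and was not called (adjusted p = 0.18), although the groups did not overlap. It was called with the GC correction (-0.22, adjusted p = 0.00623) and with only the groups compared (adjusted p = 0.0439), and over 24 alternatives the adjusted p ran from 0.00623 to 0.43.

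E2F1, the classic activator, was not called in any of the 5 comparisons. Its level was 27.8, 29.1 and 30.8 RPKM in WT BMP-off, 29.6, 28.2 and 28.9 in WT BMP-on, 28.9, 25.9 and 30.3 in KO BMP-off and 27.0, 26.9 and 25.2 in KO BMP-on libraries. KO BMP-on libraries lay below both WT groups and overlapped with KO BMP-off. The difference of KO from WT with BMP-on was -0.12 ± 0.07 (edgeR adjusted p = 0.45, 95% interval -0.27 to 0.02). The E2F1 transcript is the most GC-rich of the members at 61.6%, and under the GC correction its BMP response in KO cells moved from -0.07 to -0.37 (adjusted p from 0.51 to 8.81e-06) and its difference with BMP-on to -0.19 (adjusted p = 0.0258). Over 24 alternatives the adjusted p of E2F1 ran from 8.81e-06 to 0.87 for the first and from 0.0258 to 0.70 for the second.

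E2F3, the remaining activator, was not called in any comparison. It lay between 18.3 and 22.2 RPKM in all 12 libraries, and its groups overlapped in the BMP response of both genotypes and in KO against WT under either condition. The difference of KO from WT with BMP-on was -0.04 ± 0.05 (edgeR adjusted p = 0.85, 95% interval -0.15 to 0.08), and under the GC correction it was -0.02.

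E2F4, a repressor bound by p107 and p130, was called higher with BMP in KO cells before the GC correction and not after it. Its level was 78.3, 84.0 and 84.5 RPKM in WT BMP-off, 90.9, 86.4 and 85.5 in WT BMP-on, 80.6, 71.1 and 84.2 in KO BMP-off and 92.4, 93.2 and 84.1 in KO BMP-on libraries. The lowest value was in KO BMP-off replicate 2, the library with the strongest negative GC trend. The BMP response in KO cells was 0.23 ± 0.07 (edgeR adjusted p = 0.0226). It was 0.0049 (adjusted p = 0.95) with the GC correction and 0.15 (adjusted p = 0.0826) without KO BMP-off replicate 2, and leaving out KO BMP-on replicate 1 or 2 gave 0.20 for each (adjusted p = 0.0864 and 0.0879). Over 24 alternatives this response ran from 0.0049 to 0.28, with adjusted p values of 0.000582 to 0.95. The call was lost in 8 of them, which also included only the groups compared and the log2(RPKM) settings. The E2F4 transcript has a GC content of 59.3%. With BMP-on, KO differed from WT by 0.05 ± 0.07 (adjusted p = 0.85), and by -0.0019 with the GC correction.

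E2F5, the other repressor, lay between 11.8 and 14.1 RPKM in all 12 libraries. The difference of KO from WT with BMP-on was -0.03 ± 0.07 (edgeR adjusted p = 0.91, 95% interval -0.17 to 0.11). E2F5 shares 997 exonic bases with RBIS on the opposite strand, and whether strand was used in counting is not given in the sources used here, so that part of its count may belong to that gene.

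Of the atypical E2Fs, which lack a DP partner and repress E2F targets, E2F8 had the most negative BMP response in KO cells of any member before the GC correction. With it E2F8 was at -0.63 and E2F2 at -0.66. Its level was 14.9, 12.9 and 13.2 RPKM in WT BMP-off, 12.1, 11.6 and 11.0 in WT BMP-on, 15.0, 15.3 and 13.5 in KO BMP-off and 8.85, 9.41 and 8.23 in KO BMP-on libraries. The BMP-off groups overlapped, every WT BMP-on library lay below them, and every KO BMP-on library lay below all of these. BMP reduced E2F8 CPM in KO cells to 62.2% of the BMP-off level (-0.69 ± 0.07, edgeR adjusted p = 2.34e-06), and with BMP-on KO cells were at 76.7% of WT cells (-0.38 ± 0.07, adjusted p = 0.00346). In WT cells the response was -0.23 ± 0.07 and missed the threshold (adjusted p = 0.0715), and it passed with the GC correction (-0.21, adjusted p = 0.0181), with a range over 24 alternatives of 0.0181 to 0.30.

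E2F7 was at 3.96, 3.09 and 3.51 RPKM in WT BMP-off, 3.52, 3.44 and 3.32 in WT BMP-on, 3.98, 4.54 and 3.87 in KO BMP-off and 2.83, 2.82 and 2.42 in KO BMP-on libraries. Unlike E2F8, its WT BMP-on libraries lay within the range of WT BMP-off. In KO cells BMP reduced E2F7 CPM to 67.0% of the BMP-off level (-0.58 ± 0.09, edgeR adjusted p = 0.000272). With BMP-on it was lower in all 3 KO libraries than in all 3 WT libraries, and the test missed the threshold at -0.34 ± 0.09 (adjusted p = 0.0521). DESeq2 (adjusted p = 0.0363) and the GC-corrected fit (0.0139) called it, and over 24 alternatives the adjusted p ran from 0.00562 to 0.27. With BMP-off E2F7 was 0.21 higher in KO cells, with an unadjusted p of 0.0303 and an adjusted p of 0.44. This difference was 0.13 without WT BMP-off replicate 2 and 0.31 without WT BMP-off replicate 1, and the adjusted p ran from 0.12 to 0.90 over 24 alternatives.

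Among the pocket proteins, RBL1 fell and RB1 and RBL2 were not called in any comparison. RBL1, which encodes p107, was at 18.1, 15.6 and 15.1 RPKM in WT BMP-off, 15.1, 14.0 and 13.6 in WT BMP-on, 17.0, 18.3 and 14.4 in KO BMP-off and 10.5, 10.6 and 11.0 in KO BMP-on libraries. The KO BMP-on libraries lay close together, and below all 9 others. BMP reduced RBL1 CPM in KO cells to 66.3% of the BMP-off level (-0.59 ± 0.08, edgeR adjusted p = 3.41e-05), and with BMP-on KO cells were at 75.5% of WT cells (-0.40 ± 0.08, adjusted p = 0.00485). The call of RBL1 in KO against WT with BMP-on was lost with log2(RPKM + 1) and no filter. In WT cells the response was -0.18 ± 0.07, with groups that overlapped in CPM, and was not called (adjusted p = 0.25). Without WT BMP-off replicate 1 it was -0.09 (adjusted p = 0.66).

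RB1, the retinoblastoma tumor suppressor, lay between 30.7 and 36.6 RPKM in all 12 libraries. Its difference between KO and WT with BMP-on was -0.04 ± 0.06 (edgeR adjusted p = 0.84, 95% interval -0.16 to 0.08). RBL2, which encodes p130, lay between 17.4 and 22.5 RPKM, and its difference was -0.0061 ± 0.06 (adjusted p = 0.99, 95% interval -0.14 to 0.13). Under limma-voom, scaling by total counts and the GC correction the sign of the RBL2 difference turned, at 0.013 to 0.018. RBL2 shares 721 exonic bases with the gene model ENSG00000279344 and 609 with AKTIP, both on the opposite strand. RBL1 shares 213 with a long noncoding RNA.

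The difference between the BMP responses of KO and WT cells was tested as an interaction. edgeR called 0 of 10 members, where 0.0931% of all genes were called. At an unadjusted p under 0.05 there were 4, all with a more negative response in KO cells. These were E2F7 at -0.55 ± 0.13 (adjusted p = 0.0946), E2F8 at -0.46 ± 0.09 (adjusted p = 0.0722), RBL1 at -0.42 ± 0.11 (adjusted p = 0.14) and E2F2 at -0.32 ± 0.09 (adjusted p = 0.23). DESeq2 called E2F7 and E2F8, and the GC-corrected fit called all 4. Leaving out WT BMP-off replicate 1 or KO BMP-off replicate 3 gave 3 called members, E2F7, E2F8 and RBL1. For the members not among these 4, the interaction lay between -0.11 and 0.12 in the uncorrected fit, and that of E2F1 moved to -0.28 (adjusted p = 0.0512) with the GC correction.

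The GC content of the longest transcript ranged from 37.1% in RB1 to 61.6% in E2F1, and fold changes of all genes moved with it. In the BMP response of KO cells the 4577 genes of 55% GC or more had a median log2 fold change of 0.24, against -0.08 for the 4385 genes under 42%. With BMP-on, the same medians for KO against WT were 0.05 and -0.02, and with BMP-off they were -0.12 and 0.05. For the interaction they were 0.17 and -0.07. The correction therefore moved members at both ends in opposite directions. Of the 4 members that fell with BMP in KO cells, E2F2 (57.4% GC) moved to -0.66, E2F8 (44.7%) to -0.63, E2F7 (43.1%) to -0.51 and RBL1 (40.0%) to -0.51, and all 4 were called with and without it. The part of the GC trend in these values was not tested.

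**Figure D3:**
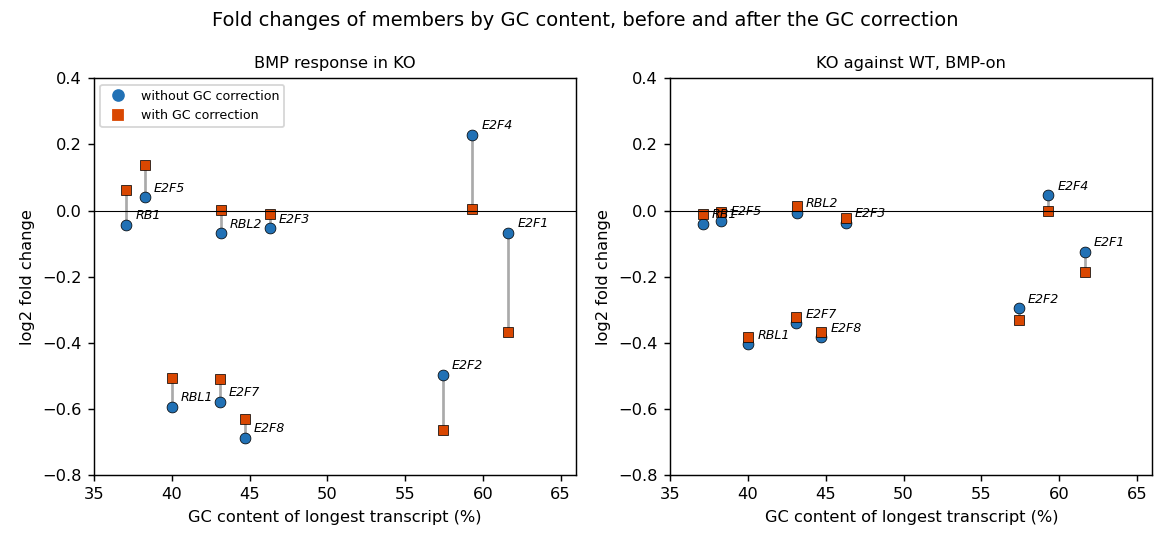
log2 fold changes of the 10 members against the GC content of the longest transcript, before (circles) and after (squares) a GC correction of each library. E2F2, E2F7, E2F8 and RBL1 lay between -0.50 and -0.69 in the BMP response of KO cells in both, while E2F4 moved from 0.23 to 0.0049 and E2F1 from -0.07 to -0.37.

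Proportions within a library do not depend on scaling between libraries and are given as a description, with no test. E2F4 and E2F1 have similar GC content, and the ratio of E2F1 to E2F4 RPKM was 0.346 to 0.364 in WT BMP-off, 0.325 to 0.339 in WT BMP-on, 0.358 to 0.364 in KO BMP-off and 0.289 to 0.299 in KO BMP-on libraries. The KO BMP-on libraries were thus below the WT BMP-on libraries, which were below both BMP-off groups. E2F4 made up 52.2% ± 0.83 of the summed RPKM of the 7 E2F genes in KO BMP-on, against 48.8% ± 0.44 in WT BMP-on, 44.5% ± 2.05 in KO BMP-off and 46.0% ± 1.77 in WT BMP-off (SD, n = 3). The atypical pair E2F7 and E2F8 made up 6.68% ± 0.22 in KO BMP-on and 8.35% ± 0.20 in WT BMP-on, against 10.6% ± 1.13 and 9.64% ± 0.89 in the KO and WT BMP-off groups. The E2F4 transcript has 59.3% GC and those of E2F3, E2F5, E2F7 and E2F8 38.3% to 46.3%, the BMP response of E2F4 in KO cells was 0.0049 with the GC correction, and the part of the GC trend in these shares was not tested. The sum of the 7 E2F genes was 164 to 185 RPKM in all libraries, and all 4 groups overlapped. The ratio of RBL1 to RBL2 was 0.562 ± 0.040 in KO BMP-on, and its highest library, at 0.608, was below the lowest of the other groups, at 0.678.

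**Figure D4:**
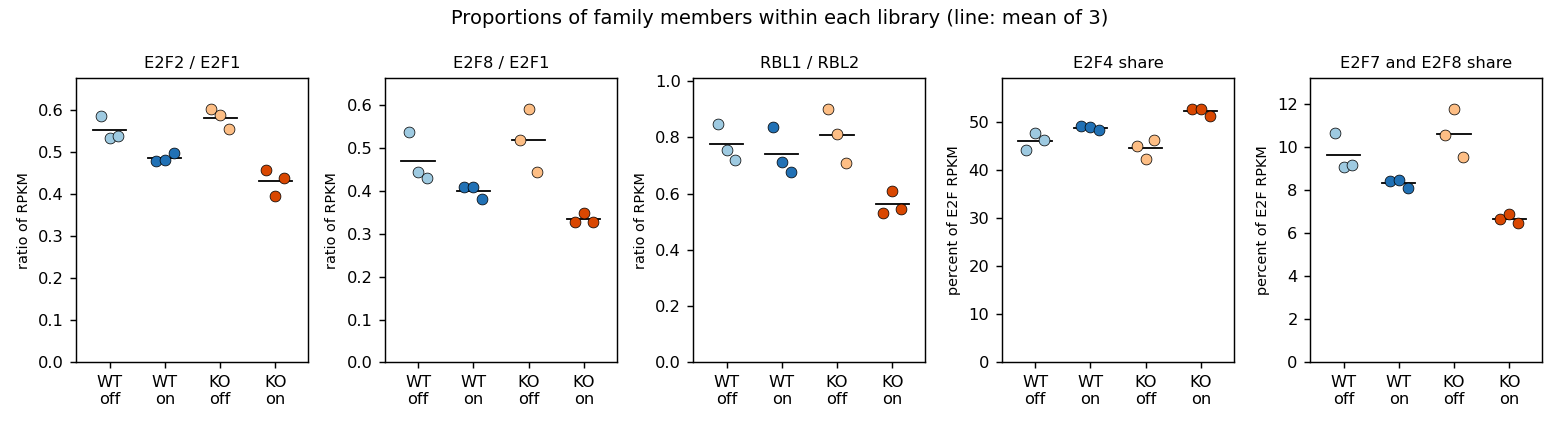
Ratios of RPKM between members, and shares of the summed RPKM of the 7 E2F genes, in each library by group (points: libraries; line: mean of 3). In KO BMP-on libraries E2F4 took 51.2% to 52.7% of the E2F sum and E2F7 with E2F8 took 6.48% to 6.91%, outside the ranges of the other groups.

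The E2F target list of 36 genes, all of them tested, was lower in KO cells with BMP-on and in the BMP response of KO cells. With BMP-on, KO cells had 23 of 36 called lower and 0 called higher, against 2.34% of all genes called lower, and a median log2 fold change of -0.24 against 0.0025 for all genes. In 35 of 36 the 3 KO libraries were below the 3 WT libraries, which held for 12.2% of all genes. In the BMP response of KO cells 31 of 36 were called lower (10.9% of all genes) with a median of -0.42, and in that of WT cells 6 (2.01% of all genes) with a median of -0.13. With BMP-off edgeR called 0 of 36, with 2 at an unadjusted p under 0.05, and DESeq2 called 0. For the interaction edgeR called 0 of 36, with 28 at an unadjusted p under 0.05, all of them lower, while DESeq2 called 13 and the GC-corrected fit 22. With BMP-on, leaving out WT BMP-on replicate 1 or KO BMP-on replicate 1 or 3 gave 15 called targets each. In the BMP response of WT cells, 2 or 3 were left without WT BMP-off replicate 1 or 2 or any 1 of the WT BMP-on libraries, and 12 were called without KO BMP-off replicate 2. For the interaction, 11 were called without WT BMP-off replicate 1 and 16 without KO BMP-off replicate 3.

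Among the targets lower in KO BMP-on than in WT BMP-on cells were CLSPN, which encodes the checkpoint adaptor claspin (-0.36 ± 0.08, edgeR adjusted p = 0.0216), and CDC45, a helicase subunit of the replication fork (-0.32 ± 0.05, adjusted p = 0.00217). The CLSPN call was lost in 10 of 24 alternatives, among them leaving out any 1 of the 3 WT BMP-on or 3 KO BMP-on libraries (highest adjusted p of these 0.13) and the replicate block (0.0526), with an adjusted p of up to 0.18. Targets that fell in the BMP response of KO cells included CCNE2, which encodes cyclin E2 (-0.59 ± 0.10), and CLSPN (-0.57 ± 0.08). In WT cells they included GINS1, a replication fork subunit (-0.25 ± 0.05), and TYMS, which encodes thymidylate synthase (-0.22 ± 0.04), whose call was lost without WT BMP-on replicate 2 (adjusted p = 0.0579). CCNE1 went the other way without being called, at 0.16 in KO against WT with BMP-on and 0.15 in the BMP response of KO cells. At least 1 E2F word was present in 38.6% of the 44 promoter windows of the target list. Windows on chromosome 8 were left out of this list but not out of the share over all promoters.

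**Figure D5:**
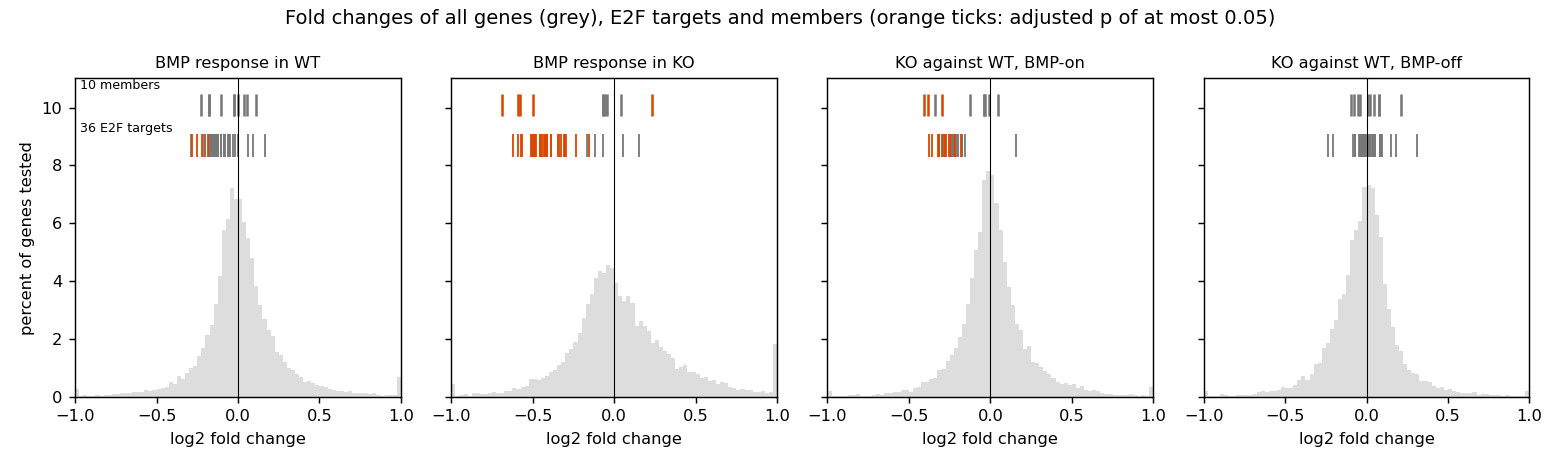
Histogram of log2 fold changes of all 17188 genes tested (grey, percent of genes; the end bins hold values beyond the axis), with ticks for the 36 E2F targets and the 10 members in 4 comparisons. Orange ticks have an adjusted p of at most 0.05, and 23 targets and 3 members were orange, all below 0, in KO against WT with BMP-on.

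Upstream of the pocket proteins, the kinase inhibitor genes CDKN1A and CDKN2C rose. CDKN1A, which encodes p21, an inhibitor of cyclin-CDK2, was at 41.6 CPM in WT BMP-off, 94.5 in WT BMP-on, 45.1 in KO BMP-off and 173 in KO BMP-on cells. It rose with BMP by 1.18 ± 0.07 in WT and 1.94 ± 0.07 in KO cells on the log2 scale, and with BMP-on it was 0.87 ± 0.07 higher in KO cells (edgeR adjusted p = 4.31e-06). CDKN2C, which encodes the CDK4/6 inhibitor p18, rose by 0.44 ± 0.06 in WT and 0.69 ± 0.06 in KO cells and was 0.37 ± 0.06 higher in KO cells with BMP-on (adjusted p = 0.00123). CDK2 was lower there (-0.19 ± 0.04, adjusted p = 0.0179) and fell in KO cells with BMP (-0.37 ± 0.04), while CCND1, which encodes cyclin D1, rose by 0.26 ± 0.05 with BMP in both. The CDK2 call with BMP-on was lost in 8 of 24 alternatives, which were limma-voom, scaling by total counts (adjusted p = 0.0632), the replicate block (0.0524) and leaving out any 1 of the WT BMP-on libraries or KO BMP-on replicate 1 or 2 (up to 0.13). The CCND1 call in WT cells was lost in 6 of 24, without WT BMP-off replicate 2 or 3 or WT BMP-on replicate 1 and with the 3 log2(RPKM) settings (adjusted p up to 0.11), and that in KO cells in 1 (0.0520). Of the 15 kinase and inhibitor genes 12 were tested. They gave 3 called higher and 0 lower in the BMP response of WT cells (1.91% and 2.01% of all genes), 3 higher and 2 lower in that of KO cells (11.1% and 10.9%), and 2 higher and 1 lower between KO and WT cells with BMP-on (1.32% and 2.34%).

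Of the 7 genes of the MuvB core and its DREAM partners, which join E2F4 and p130 or the later factors B-MYB and FOXM1, 4 were called lower and 0 higher in the BMP response of KO cells, against 10.9% and 11.1% of all genes. FOXM1, a driver of late cell-cycle genes, fell by 0.38 on the log2 scale (SE 0.05, edgeR adjusted p = 5.14e-05), LIN9 by 0.32 (SE 0.06) and LIN52 by 0.30 (SE 0.09). The LIN52 call was lost without KO BMP-off replicate 2 or KO BMP-on replicate 1 or 2 (adjusted p of 0.0510 to 0.0778). With BMP-on FOXM1 was lower in KO cells too (-0.34 ± 0.05, adjusted p = 0.00113), and 0 of the other 6 were called there. For the DP partners and E2F6, 3 of 4 genes were tested, and edgeR and DESeq2 each called 0 in any comparison. Between KO and WT cells, 1 of 3 had an unadjusted edgeR p under 0.05 under either BMP condition, higher in KO cells each time. TFDP1, the main DP gene, differed by -0.10 in KO against WT with BMP-on.

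The genes most like 4 of the members over the 12 libraries were found by the root mean square (RMS) difference of centered log2 CPM among 12788 genes. For E2F8 they were CKAP2L, ANLN and SGMS2, at 0.044 to 0.049, against 0.27 for E2F8 itself about its mean. CKAP2L encodes a spindle protein, ANLN the cytokinesis protein anillin and SGMS2 a sphingomyelin synthase. For E2F1 they were PRPF6, MED22 and RCC1 (0.033 to 0.037, against 0.089 for E2F1 itself), for RB1 they included MRPL19 and MTDH (0.022 and 0.025, against 0.062) and for RBL2 LZTFL1, PRPF38B and ARFGAP3 (0.040 to 0.041, against 0.087). The last 3 members varied little between libraries, and all genes share the depth and GC trend of each library.

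The members lie on 8 chromosomes of GRCh38 by GENCODE v44, and counts cover their exons. E2F1 (ENSG00000101412) is at chr20:33675477-33686385, E2F2 (ENSG00000007968) at chr1:23506438-23531233, E2F3 (ENSG00000112242) at chr6:20401879-20493714, E2F4 (ENSG00000205250) at chr16:67192155-67198918 and E2F5 (ENSG00000133740) at chr8:85177154-85217158. E2F7 (ENSG00000165891) is at chr12:77021248-77065569 and E2F8 (ENSG00000129173) at chr11:19224063-19241620. RB1 (ENSG00000139687) is at chr13:48303744-48599436, RBL1 (ENSG00000080839) at chr20:36996349-37095997, on the chromosome of E2F1, and RBL2 (ENSG00000103479) at chr16:53433977-53491648, on that of E2F4. Counts per library ran from 301 for E2F7 to 5121 for E2F4.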

How the data were processed

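RNA-seq of 12 libraries of MIB1-iKO cells was used, in 4 groups of 3 taken from the sample labels. The authors removed ribosomal reads, aligned 50-base reads to GRCh38 with GSNAP, counted reads on exons and deposited raw counts for 58302 Ensembl identifiers. The authors also deposited RPKM values, used here for levels and alternatives only. The columns left out number 0. Symbols, positions and transcript GC content came from GENCODE v44. Which of 2 library kits in the labels was used is not given in the sources used here.

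Counts were tested with edgeR 4.0.16 (R 4.3.3), with TMM factors, filterByExpr at its defaults and a robust quasi-likelihood fit of all 12 libraries. The Benjamini-Hochberg adjustment was made over 17188 genes in each of 5 comparisons, and a gene was called at 0.05. Intervals of 95% come from the same fit. The members and lists were chosen with earlier results of these data known. Named genes were all members, with full statistics for KO against WT with BMP-on and for calls, and up to 3 genes per direction of each list with a mean of at least 50 counts. E2F1 in the BMP response of KO cells, CCNE1, TFDP1 and values of the GC-corrected fit were added after values were seen. Some items that the rule names are not reported here.

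Alternatives were DESeq2 1.42.0, limma-voom (limma 3.58.1) with quantile normalization, total-count and upper quartile scaling, other filters, only the groups compared, a replicate block, log2(RPKM + 1) and log2(RPKM + 0.1), a GC correction (loess per library, span 0.4), a fold threshold and each library left out. On simulated data 200 genes were changed 2-fold up or down, more than any member changed. Of these, 97.5% were recovered in KO against WT with BMP-on (17017 genes) and 88.5% in the interaction (17008 genes). These shares do not give the recovery of changes as small as those of the members. Same-numbered libraries deviated together (r over 0.1) in 2 of 18 pairs, and the numbers entered the replicate block only. Whether equal numbers mark shared cultures is not given in the labels and was not tested.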

Additional observations from a re-analysis of the deposited data

Results flagged for a closer look

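CDKN1A, the gene of the CDK inhibitor p21, had a BMP response that differed between KO and WT cells. The difference was 0.75 ± 0.10 on the log2 scale by the interaction test of edgeR (adjusted p = 0.00843), and over 23 alternatives it was 0.61 to 0.83 with adjusted p values of 2.28e-14 to 0.0655. The rises were 1.94 in KO and 1.18 in WT cells. The KO and WT BMP-off groups overlapped for CDKN1A, and the 3 KO BMP-on libraries were above the 3 WT BMP-on libraries. No member of the E2F and RB families met the same mark, and groups of 3 are too small for a check of single outlying libraries.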

How the results depend on the processing

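For the members, the counts of calls kept within 1.5 times the main count except as follows. In the BMP response of WT cells (0 called) there was 1 with no filter on low counts, 2 with only the groups compared and 2 with the GC correction. For KO against WT with BMP-on (3 called) there was 1, E2F8, with log2(RPKM + 1) and no filter, and 5 with the GC correction. For the interaction (0 called) there were 2 with DESeq2, 4 with no filter and 4 with the GC correction. With a log2 fold change of at least 1 also required, 0 members were called for the BMP response in KO and 0 in the BMP-on comparison of KO with WT. For E2F targets there were 11 with only the groups compared and 14 with the GC correction in the BMP response of WT cells (6 called), 13 with log2(RPKM + 1) and no filter in the BMP-on comparison of KO with WT (23 called), and 13, 16 and 22 in the interaction (0 called) with DESeq2, no filter and the GC correction. The fold threshold left 0 targets for either BMP response and 0 for the BMP-on comparison of KO with WT. Leaving out 1 library gave 0 to 1, 4 to 5, 2 to 4, 0 to 0 and 0 to 3 members called for WT and KO responses to BMP, KO against WT with BMP-on and BMP-off and the interaction, and 2 to 12, 29 to 34, 15 to 28, 0 to 0 and 0 to 16 targets. The sign turned for E2F4 with the GC correction in KO against WT with BMP-on (-0.0019) and in the interaction (-0.044), and for RBL2 in KO against WT with BMP-on with limma-voom (0.018), total-count scaling (0.018), the GC correction (0.013) and over libraries left out (-0.056 to 0.051). With the GC correction the sign also turned for members not called in the comparison. In the BMP response of WT cells this was E2F1 (from 0.0020 to -0.087). In that of KO cells these were RB1 (from -0.043 to 0.062) and RBL2 (from -0.068 to 0.0023). In KO against WT with BMP-off they were E2F1 (from -0.055 to 0.094), E2F4 (from -0.076 to 0.042), RB1 (from 0.043 to -0.0085) and RBL1 (from 0.011 to -0.030). The causes were not tested. The replicate block gave 0, 5, 3, 0 and 0 called members and 4, 30, 19, 0 and 0 called targets, and changed no call of a member. It raised the adjusted p of CDK2 and CLSPN in the BMP-on comparison of KO with WT to 0.0524 and 0.0526 and that of the CDKN1A interaction to 0.0509, and the log2(RPKM) settings gave 0.0515 to 0.0655 for it. No scaling moved the median of all genes by over 0.1. Members had 301 counts or more in each library, and over all genes replicates of a group differed by 3.08 to 18.0 times the variance of counting alone.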
